A study of Bos taurus with 2 samples.

Results

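The oocyte and maternal-effect genes examined here were NLRP5, OOEP, ZAR1, ZP2, ZP3, ZP4, GDF9, BMP15, DPPA3 and MOS. They were chosen by their known roles in the egg, though with earlier results of these data known. Each was read by its symbol in the authors' FPKM values for the 2 pools. Of the 10 genes, 9 were among the 21209 symbols with values, and BMP15 was not analysed here. The first pool held bovine embryos made by in vitro fertilization and injected as zygotes with siRNA against CDKN1C, a cell-cycle inhibitor, and the second, the control, held sham-injected embryos of the same system, punctured by the needle without delivery of siRNA. Each pool was 1 library of amplified RNA. In both, the zygotes had been freed of cumulus cells before the procedure and cultured in the same medium. The pools are called siRNA embryos and sham embryos here. Since sham embryos received no siRNA, effects of injected siRNA as such and of lower CDKN1C cannot be told apart. The methods do not give the number of embryos, the siRNA dose or the stage and day of collection separately for the sequenced pools.

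During growth the oocyte transcribes and stores the RNAs on which the embryo depends until its own genome is switched on. Maternal-effect genes act from this store, and most of their RNAs are broken down during the first cleavages. The genes belong to several kinds. The zona pellucida genes make the egg coat, GDF9 and BMP15 are growth factors that the oocyte sends to the follicle, NLRP5 and OOEP encode parts of the subcortical maternal complex of the egg and cleaving embryo, ZAR1 and DPPA3 act in the early embryo, and MOS holds the egg in metaphase.

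OOEP, DPPA3 and ZP3 were well above the other oocyte genes in both pools, and ZAR1, ZP4, ZP2, NLRP5, GDF9 and MOS were below 0.5 FPKM or listed at 0. FPKM counts fragments per length of transcript and per amount of sequencing. The RNA was amplified by priming on the poly(A) tail, and any effect of this on short against long transcripts was not tested. Levels of different genes are therefore set side by side only roughly here. How many reads a value rests on is unknown. Of the 9 genes, 3 reached 1 FPKM in both pools, as did 34.1% of all symbols. These 3 held 98.9% of the summed FPKM of the 9 genes in the CDKN1C-siRNA-injected pool and 99.1% in the sham-injected pool. The sum itself was 88.0 FPKM in siRNA embryos and 116 FPKM in sham embryos. With no replicates, no test between the pools was possible, and no difference given here has an error or a replicate check.

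**Figure D1:**
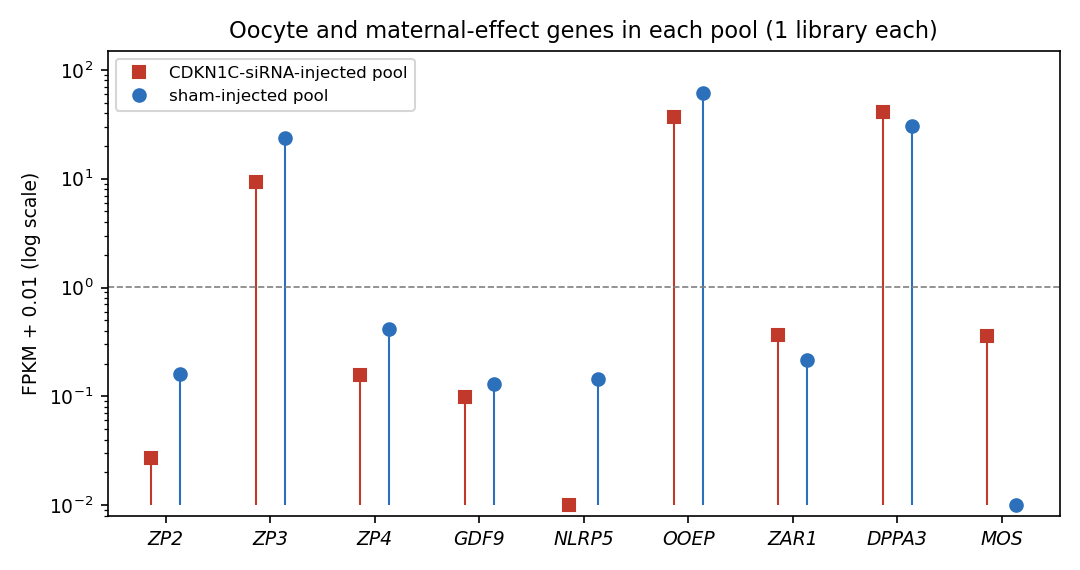
FPKM + 0.01 (vertical, log axis) of the 9 genes in the CDKN1C-siRNA-injected pool (red squares, left of each pair) and the sham-injected pool (blue circles, right), 1 library each, with a dashed line at 1 FPKM. OOEP, DPPA3 and ZP3 stand above the line in both pools, and the other 6 genes lie below it, with NLRP5 at 0 FPKM in siRNA embryos and MOS at 0 FPKM in sham embryos.

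Among the zona pellucida genes, whose glycoproteins form the coat that sperm bind, only ZP3 reached 1 FPKM. ZP3 lies on chromosome 25 of bosTau7, the genome build of the values, from 36578603 to 36586342. It was 9.39 FPKM in siRNA embryos and 23.7 FPKM in sham embryos, 2.52-fold lower in siRNA embryos. Among 3 reference genes of general use, GAPDH was 242 FPKM in siRNA embryos and 783 FPKM in sham embryos, 3.24-fold lower, and the ribosomal gene RPLP0 was 445 FPKM in siRNA embryos and 1390 FPKM in sham embryos, 3.12-fold lower. The third, ACTB, was 2484 FPKM in siRNA embryos and 1879 FPKM in sham embryos, 1.32-fold higher. GAPDH and RPLP0 thus differed by more than ZP3, and the part of such differences between the libraries in the ZP3 value was not tested. ZP2 was 0.0170 FPKM in siRNA embryos and 0.150 FPKM in sham embryos, and ZP4 was 0.146 FPKM in siRNA embryos and 0.405 FPKM in sham embryos. The 3 zona genes were thus far apart in level, and no direction is drawn from the ZP2 and ZP4 values, which lie so near 0. ZP3 made up 98.3% of the summed FPKM of these genes in siRNA embryos and 97.7% in sham embryos. ZP2 lies on the same chromosome, from 20225692 to 20237489, and ZP4 on chromosome 28 from 9178248 to 9185516.

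The difference of ZP3 was the only one of the set to reach 2-fold after adding 1 FPKM to both values, a step that understates the change of low genes. On this scale its log2 difference between the injected and sham embryos was -1.25. Of the 3 genes with an average of 1 FPKM or more, 1 was thus 2-fold lower, beside 15.7% of the 7984 genes compared, and 738 of these, or 9.24%, were as low as ZP3 or lower. Among the 2432 genes with a mean from 10 to 100 FPKM, a range chosen after the values of the 3 genes were seen, 21.1% were 2-fold lower. None of the 3 was 2-fold higher, beside 4.92% of the genes compared. Of all 2-fold calls, 23.8% were thus higher in siRNA embryos, a share that was 41.1% with the median of all genes set to 0 and 62.5% with equal totals. The median log2 difference of the 3 was -0.72, that of OOEP, beside -0.17 over all genes compared. After scaling both pools to equal total FPKM the log2 difference of ZP3 was -0.89, and after adding 5 FPKM in place of 1 it was -0.99, both short of 2-fold.

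OOEP had the highest level of the set in sham embryos. OOEP encodes a protein of the subcortical maternal complex, which in mice is required for development beyond the first cleavages. It lies on chromosome 9 from 12799647 to 12800826 and was 36.6 FPKM in siRNA embryos and 61.0 FPKM in sham embryos, 1.66-fold lower in siRNA embryos with a log2 difference of -0.72 after adding 1 FPKM. That difference was within 2-fold, and 25.3% of genes had an equal or lower difference. By level OOEP ranked 1359 among the 21209 symbols in siRNA embryos and 1129 in sham embryos.

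The partners of OOEP in that complex were not at a comparable level. NLRP5, on chromosome 18 from 63528238 to 63542904, encodes a large scaffold of the complex, also known as MATER, and was listed at 0 in siRNA embryos and at 0.136 FPKM in sham embryos. TLE6, another member of the complex, was 0.397 FPKM in siRNA embryos and 0.217 FPKM in sham embryos. KHDC3L, listed under its older symbol C9H6orf221, was at 0 in siRNA embryos and at 0.266 FPKM in sham embryos. PADI6, an enzyme-like protein of the egg's cytoplasmic lattices, was 0.0673 FPKM in siRNA embryos and 0.0707 FPKM in sham embryos. The 4 partners summed to 0.465 FPKM in siRNA embryos and 0.690 FPKM in sham embryos, below OOEP alone in each pool.

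DPPA3 was the highest of the set in siRNA embryos and the only one of the 3 well-detected genes that was higher there. DPPA3, also called STELLA, in mice protects the maternal genome from loss of DNA methylation after fertilization and is also made by pluripotent and germ cells. It lies on chromosome 5 from 108164209 to 108172054 and was 41.0 FPKM in siRNA embryos and 30.6 FPKM in sham embryos, 1.34-fold higher with a log2 difference of 0.41. This was within 2-fold, and 21.6% of genes were as high or higher. OOEP and DPPA3 changed places between the pools, OOEP being 0.894 times DPPA3 in siRNA embryos and 1.99 times DPPA3 in sham embryos.

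**Figure D2:**
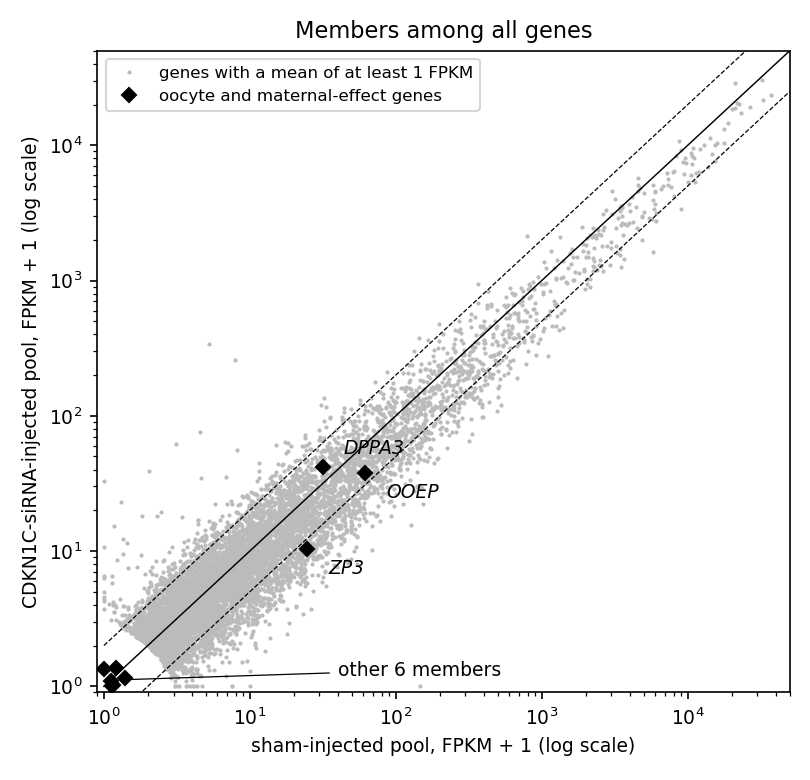
FPKM + 1 of each gene in siRNA embryos (vertical) and sham embryos (horizontal), both axes log, 1 library each. Grey points are the 7984 genes averaging 1 FPKM or more and black diamonds the 9 oocyte and maternal-effect genes, with a solid line where values are equal and dashed lines 2-fold away. ZP3 lies below the lower dashed line, OOEP and DPPA3 lie within 2-fold, and the other 6 genes sit in the lowest corner.

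The pluripotency genes of the inner cell mass, with which DPPA3 shares expression in other mammals, kept one order in both pools, with DPPA3 below POU5F1 and above NANOG and SOX2. POU5F1 was 56.3 FPKM in siRNA embryos and 170 FPKM in sham embryos, NANOG was 15.1 FPKM in siRNA embryos and 23.9 FPKM in sham embryos, and SOX2 was 4.37 FPKM in siRNA embryos and 5.87 FPKM in sham embryos. All 3 were lower in siRNA embryos, while DPPA3 was higher, as were 41.7% of all genes compared. Whether this contrast is particular to DPPA3 was not tested. DPPA3 was 0.729 times POU5F1 in siRNA embryos and 0.180 times POU5F1 in sham embryos, and 2.72 times NANOG in siRNA embryos and 1.28 times NANOG in sham embryos.

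The remaining oocyte genes were close to the floor of the values. ZAR1, on chromosome 6 from 69723824 to 69727950, encodes a protein that in mice holds maternal RNAs in store, and was 0.356 FPKM in siRNA embryos and 0.205 FPKM in sham embryos. GDF9, on chromosome 7 from 44070633 to 44073574, was 0.0892 FPKM in siRNA embryos and 0.121 FPKM in sham embryos. MOS, a kinase that starts the MAP kinase cascade holding the egg in the second metaphase, lies on chromosome 14 from 23154563 to 23155877 and was 0.348 FPKM in siRNA embryos and listed at 0 in sham embryos. Of these low genes, with ZP2, ZP4 and NLRP5 added, 2 were higher in siRNA embryos and 4 in sham embryos. No direction is drawn from values so low. Values of this size were common: 33.8% of all symbols were listed at 0 in siRNA embryos and 30.2% in sham embryos, and the median symbol was at 0.216 FPKM in siRNA embryos and 0.238 FPKM in sham embryos. No fold between the pools is given for these genes, since a single value so near 0 in each pool cannot carry one.

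The position of the genes gave some context for these levels. Within 100 kb of the 9 loci lay 43 other annotated loci, none of which overlapped a member. NLRP8 and NLRP13, neighbours of NLRP5 and oocyte genes of the same family, were listed at 0 in both pools, while ZNF787, a zinc finger gene 4.26 kb from NLRP5, was 2.46 FPKM in siRNA embryos and 2.09 FPKM in sham embryos. The loci next to OOEP were low: C9H6orf221, 10.5 kb away, is given above, and DDX43, an RNA helicase gene 19.9 kb away, was 0.0680 FPKM in siRNA embryos and 0.109 FPKM in sham embryos. No named locus within 100 kb of OOEP came near its level.

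Around ZP3 the nearest locus on either side was low as well. DTX2, a Notch pathway gene 10.9 kb away, was 0.706 FPKM in siRNA embryos and 1.08 FPKM in sham embryos, and SRCRB4D, 20.2 kb away on the other side, was listed at 0 in both. Farther off, HSPB1, a small heat shock protein gene at 81.5 kb, was 1284 FPKM in siRNA embryos and 2234 FPKM in sham embryos. DPPA3 lay in a region with other genes of pluripotent cells. NANOG was 71.4 kb away, and GDF3, a growth factor gene at 33.6 kb, was 0.852 FPKM in siRNA embryos and 5.94 FPKM in sham embryos, the opposite direction to DPPA3. GDF9 was at its low level although UQCRQ, a respiratory chain gene 2003 bases away, was 397 FPKM in siRNA embryos and 353 FPKM in sham embryos, and MOS was likewise low 19.5 kb from RPS20, a ribosomal protein gene at 18933 FPKM in siRNA embryos and 20997 FPKM in sham embryos.

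**Figure D3:**
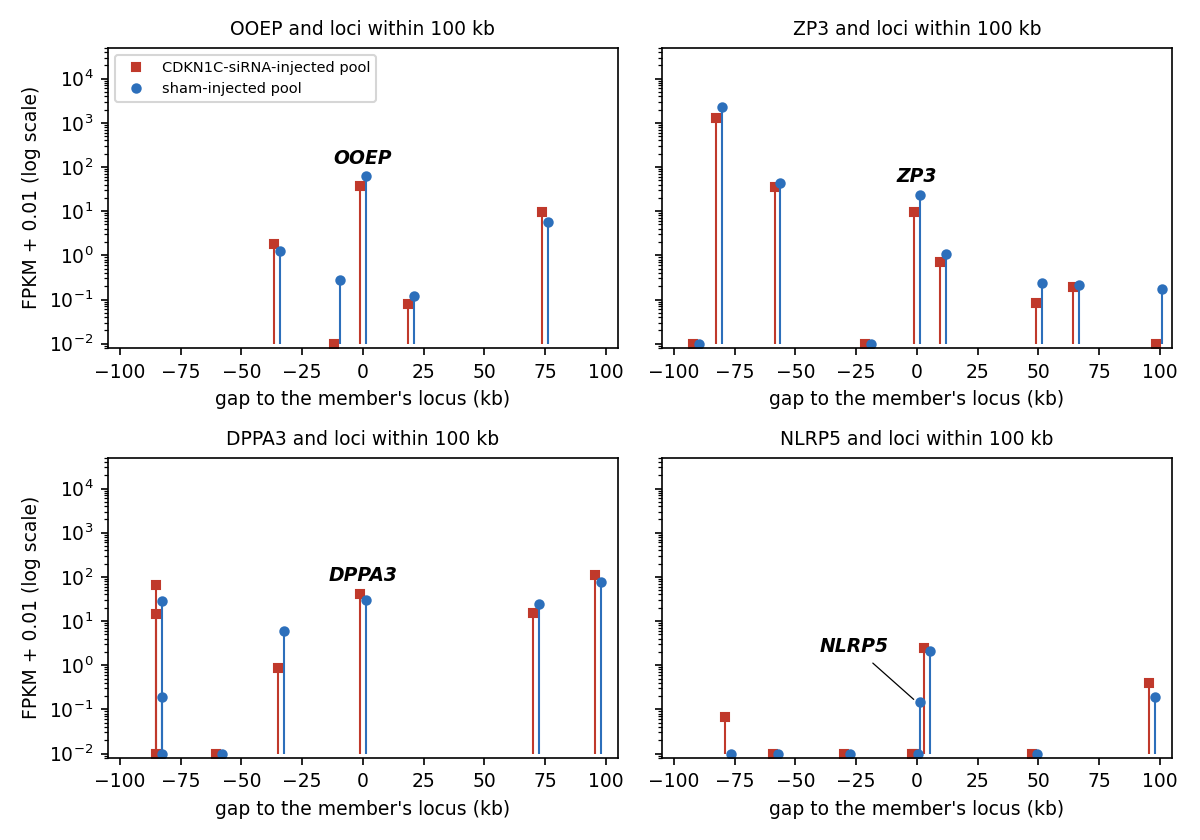
FPKM + 0.01 (vertical, log axis) of OOEP, ZP3, DPPA3 and NLRP5 and of all loci within 100 kb, by the gap to the member's locus in kb (horizontal, 0 for the member), in the CDKN1C-siRNA-injected pool (red squares, drawn slightly left) and the sham-injected pool (blue circles, slightly right). OOEP and ZP3 stand above the loci next to them, DPPA3 lies between GDF3 and NANOG, and NLRP5 is at or near 0 FPKM beside NLRP8.

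Other genes of the oocyte and of maternal inheritance were mostly under 1 FPKM, as were most symbols. Of 49 listed symbols, 36 had values, and 24 of these had a mean under 1 FPKM, with 6 at 0 in both pools. The highest of the low ones was OOSP1, an oocyte-secreted protein gene, at 0.870 FPKM in siRNA embryos and 0.839 FPKM in sham embryos. The oocyte transcription factor genes FIGLA and LHX8 were listed at 0 in both pools, and NOBOX at 0 in siRNA embryos and 0.0903 FPKM in sham embryos. H1FOO, the linker histone of the oocyte, was 0.308 FPKM in siRNA embryos and 0.175 FPKM in sham embryos. OOSP1 and these 4 were named after their values were seen, and other genes of the list had higher levels. Among those, YBX2 was 24.6 FPKM in siRNA embryos and 11.0 FPKM in sham embryos. NPM2 was 0.339 FPKM in siRNA embryos and 2.23 FPKM in sham embryos. YBX2 and NPM2 were also named after their values were seen.

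The other 12 genes of that list had an average of 1 FPKM or more and went both ways, 5 2-fold or more higher and 3 2-fold or more lower in siRNA embryos, beside 4.92% higher and 15.7% lower among all genes compared. CD9, a tetraspanin of the egg surface needed for sperm fusion in mice and made by many other cells, was 945 FPKM in siRNA embryos and 367 FPKM in sham embryos. UCHL1, a deubiquitinating enzyme abundant in oocytes and neurons, was 16.9 FPKM in siRNA embryos and 2.43 FPKM in sham embryos, and HSF2, a heat shock transcription factor, was 8.27 FPKM in siRNA embryos and 2.51 FPKM in sham embryos. Lower in siRNA embryos were AURKC, a meiotic Aurora kinase, at 13.7 FPKM against 35.0 FPKM in sham embryos, and SOHLH1, a germ cell transcription factor, at 0.669 FPKM against 3.37 FPKM in sham embryos. NPM3, a histone chaperone gene, was 20.2 FPKM in siRNA embryos and 23.0 FPKM in sham embryos. The median log2 difference of the 12 was -0.11, beside the -0.17 given above, but 0.051 with the median of all genes set to 0 and 0.26 with equal totals. UCHL1 was among the genes that the study selected from these same pools.

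**Figure D4:**
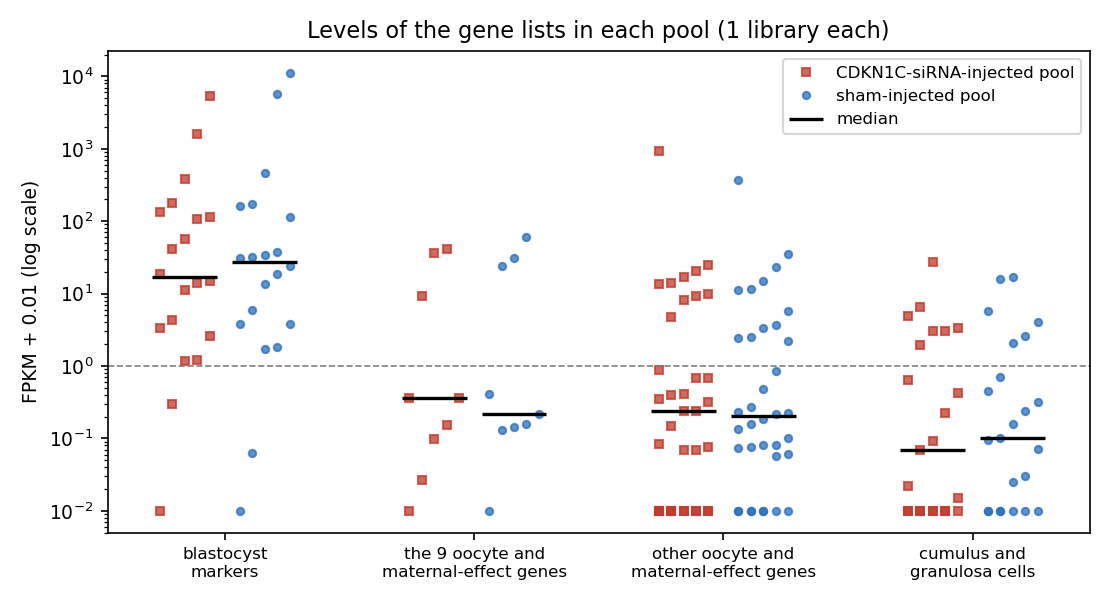
FPKM + 0.01 (vertical, log axis) of each gene of 4 lists in the CDKN1C-siRNA-injected pool (red squares, left) and the sham-injected pool (blue circles, right), 1 library each. Black bars are medians over the genes with values, and the dashed line marks 1 FPKM. The medians of the blastocyst markers are 16.8 FPKM in siRNA embryos and 27.5 FPKM in sham embryos, and those of the other 3 lists lie below 1 FPKM in both.

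Most markers of the blastocyst were detected in both pools. Of 20 blastocyst markers with values, 18 were at or above 1 FPKM in both pools, beside 34.1% of all symbols. Among them was the trophectoderm keratin KRT18, at 5389 FPKM in siRNA embryos and 11245 FPKM in sham embryos. KRT8 was 1611 FPKM in siRNA embryos and 5760 FPKM in sham embryos. GATA2, a trophectoderm transcription factor, was 379 FPKM in siRNA embryos and 461 FPKM in sham embryos. SOX17, a marker of hypoblast, was listed at 0 in both pools. IFNT2 and IFNT3, interferon tau genes of the trophectoderm, were higher in siRNA embryos, at 135 FPKM and 116 FPKM against 31.1 FPKM and 32.2 FPKM in sham embryos. Of the 18 markers averaging 1 FPKM or more, 5 were 2-fold or more lower and 2 2-fold or more higher, beside 15.7% and 4.92% of all genes compared, with a median log2 difference of -0.32, or 0.044 with equal totals. CDKN1C, the siRNA target, was 14.6 FPKM in siRNA embryos and 49.5 FPKM in sham embryos.

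Markers of cumulus and granulosa cells, the follicle cells around the egg, were read, since these cells could be another source of ovarian RNA. Which cells made the RNA of these markers was not tested. Of 23 with values, 7 were at 0 in both pools, among them FOXL2, AMH and AMHR2, named after their values were seen. Of all symbols, 33.8% were at 0 in siRNA embryos and 30.2% in sham embryos. At or above 1 FPKM in both pools were 6 of the markers, FSHR among them, beside 34.1% of all symbols. The 23 markers summed to 51.0 FPKM in siRNA embryos and 49.1 FPKM in sham embryos. The part of these markers in the ZP3 value was not tested. PTGS2 was the largest part of this sum in both pools. Without PTGS2 and GATM, a choice made after their values were seen, the sum was 17.6 FPKM in siRNA embryos and 31.5 FPKM in sham embryos. These were the 2 markers with the highest differences, so leaving them out favours a lower sum in siRNA embryos, and no direction is drawn from it. Of the 7 markers averaging 1 FPKM or more, 3 were higher in siRNA embryos, beside 41.7% of all genes compared, and 4 were lower. PTGS2, which makes prostaglandins, was 26.9 FPKM in siRNA embryos and 16.9 FPKM in sham embryos, the follicle-stimulating hormone receptor gene FSHR was 4.87 FPKM in siRNA embryos and 5.69 FPKM in sham embryos, CYP11A1, of the first step of steroid synthesis, was 3.003 FPKM in siRNA embryos and 4.02 FPKM in sham embryos, and STAR, which carries cholesterol to that step, was 1.91 FPKM in siRNA embryos and 2.60 FPKM in sham embryos. GATM, a creatine synthesis gene, was 6.57 FPKM in siRNA embryos and 0.686 FPKM in sham embryos, and the steroid enzyme gene HSD3B1 was 3.29 FPKM in siRNA embryos and 15.7 FPKM in sham embryos. In whole embryos fewer cells of a type and less RNA per cell cannot be told apart.

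The receptors through which GDF9 and BMP15 act in the follicle were mostly low, as their ligand GDF9 was. BMPR2, the shared type II receptor, was 0.206 FPKM in siRNA embryos and 0.147 FPKM in sham embryos, and TGFBR1, the type I receptor of GDF9, was 0.0280 FPKM in siRNA embryos and 0.0512 FPKM in sham embryos. BMPR1B, the type I receptor of BMP15, was 0.00912 FPKM in siRNA embryos and 0.0589 FPKM in sham embryos. These were named after their values were seen. Of 17 receptor and SMAD genes, 5 had an average of 1 FPKM or more, and 5 reached 1 FPKM in both pools, beside 34.1% of all symbols. ACVR2B, an activin receptor, was 20.4 FPKM in siRNA embryos and 50.9 FPKM in sham embryos. It was the only one of the 5 that was 2-fold or more lower, beside 15.7% of all genes compared. The signal carriers SMAD1, SMAD2 and SMAD4 were 17.3, 6.34 and 1.02 FPKM in siRNA embryos, and 9.47, 5.08 and 1.06 FPKM in sham embryos. The median log2 difference of the 5 was 0.019.

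Of 21 genes around MOS in the control of metaphase, 12 were at or above 1 FPKM in both pools. The share over all symbols was 34.1%. Of the 21, 8 had a mean under 1 FPKM. MAP2K1, the kinase that MOS activates, was 13.2 FPKM in siRNA embryos and 8.03 FPKM in sham embryos, and MAPK3, its substrate ERK1, was 0.575 FPKM in siRNA embryos and 2.98 FPKM in sham embryos. FBXO43, the inhibitor that keeps the egg from leaving metaphase, was listed at 0 in both pools. PKMYT1, an inhibitory kinase of CDK1, was 8.58 FPKM in siRNA embryos and 39.0 FPKM in sham embryos, whereas WEE1, which has the same substrate, was 11.8 FPKM in siRNA embryos and 4.01 FPKM in sham embryos. CDC20 was 24.98 FPKM in siRNA embryos and 63.3 FPKM in sham embryos, and cyclin B2, CCNB2, was 22.9 FPKM in siRNA embryos and 26.9 FPKM in sham embryos. Of the 13 with an average of 1 FPKM or more, 4 were 2-fold or more lower, beside 15.7% of all genes compared, and 1 2-fold or more higher, beside 4.92%, and the median log2 difference was -0.31, or 0.037 with equal totals.

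DPPA3 acts on DNA methylation, and the genes of that machinery were lower in level than DPPA3 itself. DNMT3A, a de novo methyltransferase, was 17.0 FPKM in siRNA embryos and 23.0 FPKM in sham embryos, and UHRF1, the partner of the maintenance enzyme that mouse DPPA3 binds, was 4.33 FPKM in siRNA embryos and 3.55 FPKM in sham embryos. TET3, the oxidase of the zygote, was 0.0599 FPKM in siRNA embryos and listed at 0 in sham embryos. TRIM28, a corepressor that keeps imprints, was 5.79 FPKM in siRNA embryos and 20.3 FPKM in sham embryos, and TDG, a thymine glycosylase of demethylation, was 5.61 FPKM in siRNA embryos and 2.05 FPKM in sham embryos. Of 5 genes with an average of 1 FPKM or more, only TRIM28 was 2-fold or more lower, beside 15.7% of all genes compared. Only TDG was 2-fold or more higher, beside 4.92%. The median log2 difference of the 5 was -0.18, or 0.076 with equal totals.

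Genes that remove maternal RNA were detected in part. YTHDF2, a reader of methylated RNA that promotes decay, was 30.4 FPKM in siRNA embryos and 23.3 FPKM in sham embryos, PAN3, of a deadenylase, was 11.9 FPKM in siRNA embryos and 6.18 FPKM in sham embryos, and ZFP36L2, an RNA decay factor, was 8.75 FPKM in siRNA embryos and 6.34 FPKM in sham embryos. BTG4, the oocyte adaptor of the CCR4-NOT deadenylase, was 0.140 FPKM in siRNA embryos and 0.149 FPKM in sham embryos. The uridylating enzyme gene ZCCHC11 was 6.55 FPKM in siRNA embryos and 2.61 FPKM in sham embryos and its relative ZCCHC6 was 1.92 FPKM in siRNA embryos and 0.620 FPKM in sham embryos. Lower in siRNA embryos were the CCR4-NOT subunits CNOT8, at 0.785 FPKM against 2.10 FPKM in sham embryos, and CNOT1, at 5.82 FPKM against 8.28 FPKM in sham embryos. Of 22 genes with values, 8 had a mean under 1 FPKM. Of the other 14, 11 were higher in siRNA embryos by any amount, beside 41.7% of all genes compared, and 1 was higher by at least 2-fold, beside 4.92%. The median log2 difference of the 14 was 0.45, beside -0.17 over all genes compared, and 0.24 when the low genes were included.

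The genes whose values lay nearest to those of the 3 well-detected genes, by distance in log2(FPKM + 1) over the 2 pools, came from various functions. Nearest to ZP3 was MSX2, a homeobox gene, at 9.16 FPKM in siRNA embryos and 23.6 FPKM in sham embryos, and then C22H3orf75. Nearest to OOEP were GABARAPL1, an autophagy gene, at 37.7 FPKM in siRNA embryos and 58.9 FPKM in sham embryos, and BID, summed over its loci. Nearest to DPPA3 were RG9MTD3 and SPTSSA, the second a subunit of the enzyme that starts sphingolipid synthesis, at 41.7 FPKM in siRNA embryos and 30.6 FPKM in sham embryos. With 1 library in each pool, such nearness is a likeness of 2 values only.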

How the data were processed

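The data come from 1 pool of CDKN1C-siRNA-injected and 1 pool of sham-injected bovine embryos. RNA of each pool was amplified with a kit that primes on the poly(A) tail. The authors aligned reads to bosTau7 by TopHat and deposited FPKM values from Cufflinks 2.0.2, upper-quartile normalized and corrected for sequence bias. The gene annotation is not given in the sources used here. The values hold no read counts, so read depth is unknown.

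FPKM was summed per symbol over the 22220 loci, giving 21209 symbols, and 615 loci without a symbol were left out. Each difference was log2((siRNA + 1)/(sham + 1)), and 7984 genes were compared, those with an average of 1 FPKM or more. Sizes of 2-fold and a level of 1 FPKM served as rules, with no test. Older symbols were matched through RefSeq names of the ARS-UCD2.0 annotation, from which no coordinates were taken. The genes and lists were chosen with earlier results of these data known. Every member is named, as is CDKN1C. For the other lists the rule named the 3 highest means and the 2 highest and 2 lowest differences, and list genes named outside it were chosen after their values were seen. Alternatives were a pseudocount of 0.1 or 5 FPKM, no filter or a mean of at least 5 FPKM, a median difference set to 0, equal totals, the highest locus in place of the sum, presence at 0.1 or 5 FPKM and a 4-fold rule. Python 3.11.15, pandas 2.3.3, NumPy 2.4.6 and matplotlib 3.10.9 were used.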

Additional observations from a re-analysis of the deposited data

How the results depend on the processing

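ZP3 stayed lower in siRNA embryos under each alternative run, but its 2-fold call did not hold under all of them. Its log2 difference was -0.99 after adding 5 FPKM and -0.89 with equal total FPKM, and under these settings, as with a 4-fold rule, the number of members called lower was 0 in place of 1. With presence set at 0.1 FPKM in both pools, 5 genes in place of 3 were present. The differences of OOEP and DPPA3 kept their direction and their side of 2-fold in all alternatives run. The median of the 3 genes did so in those that kept the same 3 genes, and with no filter the median of all 9 genes was -0.18. The median log2 difference of the other oocyte list was 0.52 with a mean of at least 5 FPKM, 0.051 after setting the median of all genes to 0 and 0.26 with equal totals. With equal totals it was also above 0 for the list around MOS, at 0.037, the list of DNA methylation, at 0.076, cumulus and granulosa cells, at 0.15, and blastocyst markers, at 0.044. Equal totals put the median of all genes at 0.17, against -0.17 as deposited. Of the 2-fold calls over all genes, 23.8% were higher in siRNA embryos as deposited, 41.1% after centring and 62.5% with equal totals. Leaving out a library was not possible with 1 in each pool. The cause of these shifts was not tested. No interval for counting error can be given, since FPKM holds no read count.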

Other observations

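Genes known from the activation of the embryo's own genome, the step that takes over from the maternal store, were also read. Of 14 listed, 9 had values, and 6 of these were at or above 1 FPKM in both pools, beside 34.1% of all symbols. EIF1AX, a translation initiation factor, was 654 FPKM in siRNA embryos and 421 FPKM in sham embryos, PAIP1, a poly(A)-binding protein partner, was 54.5 FPKM in siRNA embryos and 23.3 FPKM in sham embryos, and KLF5, a transcription factor of the early embryo, was 28.0 FPKM in siRNA embryos and 11.0 FPKM in sham embryos. PAIP1 and KLF5 were the genes 2-fold or more higher in siRNA embryos, beside 4.92% of all genes compared, and none was 2-fold lower, beside 15.7%. ARGFX, a homeobox gene, was 3.73 FPKM in siRNA embryos and 4.64 FPKM in sham embryos, and NFYA was 2.49 FPKM in siRNA embryos and 3.60 FPKM in sham embryos. ZSCAN4, a gene of the first embryonic transcription in mice and humans, was 0.0826 FPKM in siRNA embryos and 0.0470 FPKM in sham embryos and was named after its values were seen. The median log2 difference of the 6 genes was 0.54, beside -0.17 over all genes compared. It was 0.92 with equal totals, and 0.048 when the low genes were included.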
